A study of Homo sapiens with 11 samples.

Results

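Mature miRNAs of the miR-137, miR-138, miR-218 and miR-338 families, 6 in number, were followed across 11 small RNA libraries of human SH-SY5Y cells: hsa-miR-137, hsa-miR-138-5p, hsa-miR-138-1-3p, hsa-miR-218-5p, hsa-miR-338-3p and hsa-miR-338-5p. They were chosen by name, as neuron-enriched miRNAs with known roles at synapses and in neurites, and are 6 of the 2576 miRNAs in the count tables. The choice was made with earlier results of these data known. SH-SY5Y is a neuroblastoma cell line derived from SK-N-SH that takes on a neuron-like form in culture with all-trans retinoic acid (ATRA). All groups, controls included, were differentiated with 10 µM ATRA for 7 days. In co-treatment, 10 µM H2O2 was present together with ATRA throughout differentiation (3 control and 3 H2O2 libraries), whereas in pre-treatment undifferentiated cells received 10 µM H2O2 for 3 days and it was removed before ATRA was added (2 control and 3 H2O2 libraries). Controls received no H2O2. The third pre-treatment control of the study is not analysed here. The replicates are described as biological triplicates of 1 tumour cell line, so the p-values below measure the spread between cultures of that line.

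A miRNA is a short RNA that guides the Argonaute protein to messenger RNAs, mostly by pairing of its seed (bases 2 to 8) with sites in their 3′ untranslated regions, and so lowers the yield of protein from them. Each hairpin precursor is cut into a 5p and a 3p arm, of which 1 usually accumulates. miR-137 is enriched in brain, where it acts in neural differentiation, dendrite growth and the presynaptic terminal. miR-138 limits the size of dendritic spines, miR-218 is abundant in motor neurons and other neurons and shapes their excitability, and miR-338 acts in neurons and in maturing oligodendrocytes, the cells that make myelin.

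hsa-miR-138-5p is cut from 2 hairpins, MIR138-1 (GRCh37, chr3:44155704-44155802, plus strand) and MIR138-2 (chr16:56892430-56892513, plus strand), neither of which lies in an annotated host gene. hsa-miR-138-1-3p can come from MIR138-1 alone. The hairpins of hsa-miR-218-5p are MIR218-1 (chr4:20529898-20530007, plus strand), in an intron of SLIT2, and MIR218-2 (chr5:168195151-168195260, minus strand), in an intron of SLIT3, both of which encode axon guidance proteins. MIR338 (chr17:79099677-79099755) lies in an intron of AATK, which encodes a kinase of the nervous system. AATK and the RefSeq entry of MIR338 are on the minus strand, while the GENCODE row of MIR338 gives the plus strand. The position of the hairpin of hsa-miR-137 was not used here.

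The mature sequences (RefSeq, GRCh38.p14) are shown 5′ to 3′ with the seed in capitals, because the seed largely sets which messages each miRNA can bind and the base composition is used below. The counts name no arm for hsa-miR-137, which RefSeq lists as the 3p arm.
hsa-miR-137: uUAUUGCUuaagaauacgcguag
hsa-miR-138-5p: aGCUGGUGuugugaaucaggccg
hsa-miR-138-1-3p: gCUACUUCacaacaccagggcc
hsa-miR-218-5p: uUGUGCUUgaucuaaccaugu
hsa-miR-338-3p: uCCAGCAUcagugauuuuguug
hsa-miR-338-5p: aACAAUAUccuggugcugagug
The 6 seeds all differ, and none of the other measured miRNAs with a RefSeq sequence carries any of them. The 6 also differ in GC content, which was 34.8% in hsa-miR-137, 38.1% in hsa-miR-218-5p, 40.9% in hsa-miR-338-3p, 45.5% in hsa-miR-338-5p, 56.5% in hsa-miR-138-5p and 59.1% in hsa-miR-138-1-3p.

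The other measured arms of these hairpins are shown because they help to separate the loci.
hsa-miR-138-2-3p: gCUAUUUCacgacaccaggguu
hsa-miR-218-1-3p: aUGGUUCCgucaagcaccaugg
hsa-miR-218-2-3p: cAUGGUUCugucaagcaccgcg
hsa-miR-138-1-3p and hsa-miR-138-2-3p differ at 4 of 22 positions, counted from the 5′ end, with C5U inside the seed and A11G, C21U and C22U outside it.

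The libraries held 5343953 to 8927582 counts (median 7425640), so that 3 counts, taken here as the detection limit, amounted to 0.336 to 0.561 CPM (counts scaled to a common library total). Such limits cover counting error only. The pre-treatment controls stood apart from each other. Control 1 had a summed level of 127 CPM over 6 white blood cell miRNAs and 211 CPM over 7 epithelial miRNAs, against 20.9 to 41.8 CPM and 70.8 to 107.0 CPM in the other 10 libraries. In each list 1 miRNA gave most of this, hsa-miR-223-3p with 76.3 CPM and hsa-miR-205-5p with 142 CPM. Without them control 1 held 50.3 CPM over 5 white blood cell miRNAs (20.2 to 40.6 CPM in the others) and 69.1 CPM over 6 epithelial miRNAs (66.1 to 105 CPM). In view of control 1, pre-treatment values are also given without 1 control where this matters. The neuronal label was checked against 5 neuronal marker miRNAs. hsa-miR-128-3p (1132.8 to 1991.7 CPM) and hsa-miR-7-5p (248 to 701 CPM) were abundant, but hsa-miR-124-3p, the defining miRNA of mature neurons, had only 0 to 7 counts and hsa-miR-9-5p 14 to 46 counts per library.

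Levels below, and those of the marker miRNAs above, are CPM scaled with TMM (trimmed mean of M-values) over all 11 libraries. The detection limits above were scaled by library total alone. hsa-miR-137 was among the most abundant miRNAs of these cells, with 10926 to 34863 CPM, rank 6 to 17 in each library and 1.11% to 3.62% of its counts. hsa-miR-338-3p came next, between 567 and 2846.7 CPM (rank 53 to 117), followed by hsa-miR-138-5p between 187 and 808 CPM and hsa-miR-218-5p between 34.7 and 164 CPM. The passenger arms were rare, with 13.8 to 68.7 CPM for hsa-miR-138-1-3p and 0.961 to 8.33 CPM, or 8 to 59 counts, for hsa-miR-338-5p. hsa-miR-137 varied least over the 11 libraries, by a factor of 3.19 from lowest to highest, and hsa-miR-338-5p most, by a factor of 8.67.

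**Figure D1:**
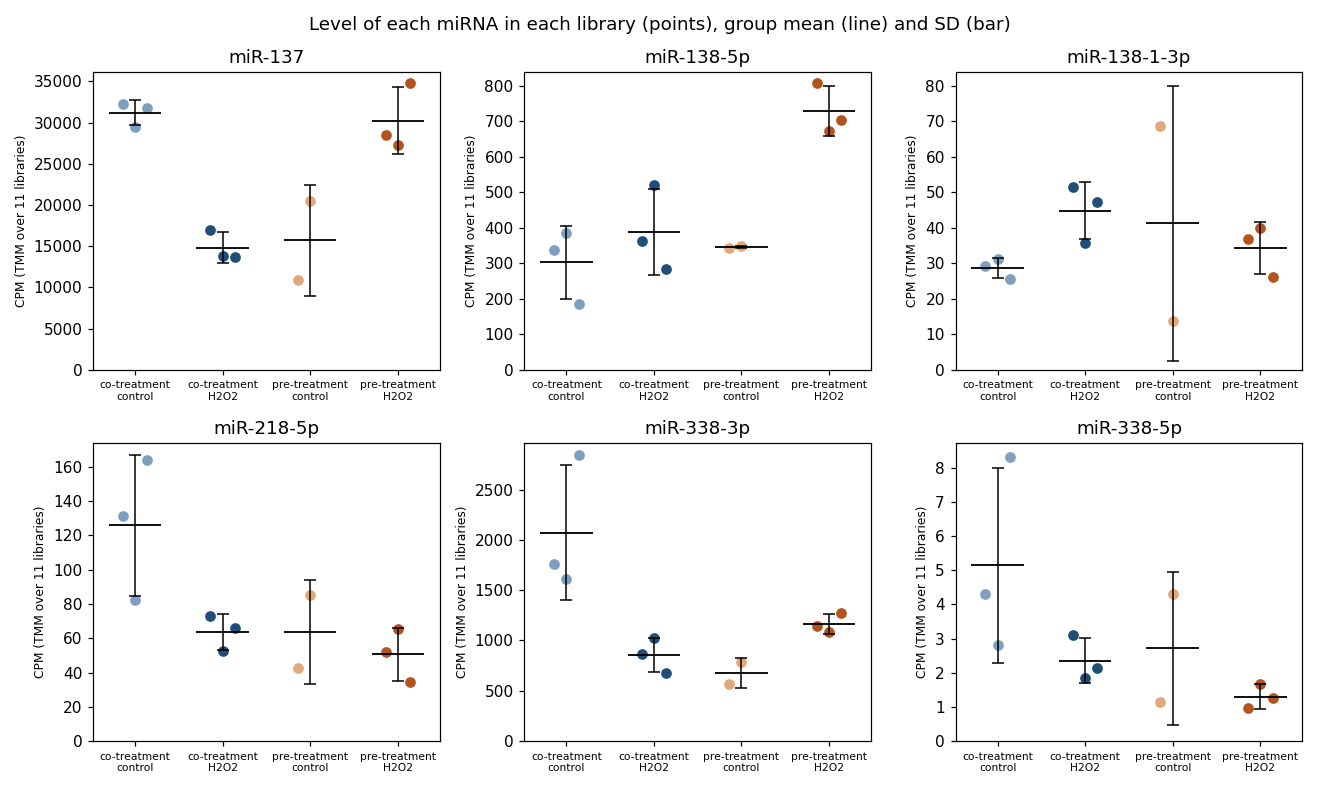
Level of each of the 6 miRNAs (y axis, CPM scaled over 11 libraries, starting at 0) in co-treatment controls, co-treatment H2O2 libraries, pre-treatment controls and pre-treatment H2O2 libraries (x axis). Points are libraries, lines group means and bars SD, with n = 3 except n = 2 for pre-treatment controls. hsa-miR-137 and hsa-miR-338-3p are lower with H2O2 in co-treatment and higher with H2O2 in pre-treatment, with no overlap in either. Of all tested miRNAs, 41.4% had no overlap in co-treatment and 47.6% in pre-treatment.

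The order of the group means differed between the miRNAs. For hsa-miR-137, co-treatment controls (31192 ± 1499.7 CPM, SD, n = 3) and pre-treatment H2O2 libraries (30226 ± 4063 CPM, n = 3) overlapped, and lay without overlap above pre-treatment controls (15694 ± 6742.5 CPM, n = 2), which in turn overlapped with co-treatment H2O2 libraries (14819 ± 1867 CPM, n = 3). hsa-miR-338-3p had the order co-treatment controls, pre-treatment H2O2, co-treatment H2O2 and pre-treatment controls, in which the last pair overlapped and the other neighbours did not. For hsa-miR-138-5p the pre-treatment H2O2 group lay above the other 3, which overlapped. For hsa-miR-218-5p the neighbours without overlap were co-treatment controls above co-treatment H2O2 libraries. In hsa-miR-138-1-3p all neighbouring groups overlapped. The hsa-miR-338-5p level was separate only between its last neighbours, co-treatment H2O2 above pre-treatment H2O2. Since the controls belong to different experiments, a batch and the regimen cannot be told apart in comparisons of levels between co-treatment and pre-treatment.

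Co-treatment asked how H2O2 during differentiation relates to miRNA levels. hsa-miR-137, hsa-miR-338-3p and hsa-miR-218-5p were lower in all 3 H2O2 libraries than in any control, and all 3 passed the test. No member was raised. A call in edgeR's exact test needed an FDR (false discovery rate, a Benjamini-Hochberg adjusted p) under 0.05 and a log2 fold change (log2FC) larger than 0.6 in either direction. By this rule 15.6% of the 790 miRNAs tested were lowered and 10.6% raised (26.2% in all). The median log2FC of the 6, which were chosen with earlier results of these data known, was −1.04, against −0.04 over all tested miRNAs. None of the 3 calls held once each library's trend on GC content was removed.

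hsa-miR-137 stood at 32269.8, 29479 and 31827 CPM in the co-treatment controls and at 16974, 13814.5 and 13669 CPM in the H2O2 libraries. Its controls lay close together, and every H2O2 library lay far below them. The log2FC was −1.10 (SE 0.20, edgeR FDR = 0.000589), so that controls had 2.14 times the level of H2O2 libraries. In bulk RNA, fewer cells with a miRNA and less of it per cell cannot be told apart.

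For hsa-miR-338-3p, controls held 1757.9, 1615.6 and 2846.7 CPM and H2O2 libraries 864, 1023.7 and 679.5 CPM. Control 3 was the highest by far, but the lowest control still lay above the highest H2O2 library. This gave the largest change of the 6 in co-treatment, a log2FC of −1.29 (SE 0.27, edgeR FDR = 0.000395). Without control 3 it was −0.96, and it passed the test with any library left out.

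hsa-miR-218-5p had 132, 82.3 and 164 CPM in controls against 73.2, 52.5 and 66.1 CPM in H2O2 libraries. The groups did not overlap, though control 2 was close to H2O2 library 1. Its log2FC was −0.99 (SE 0.29, edgeR FDR = 0.00803). The call was lost without control 1, control 3, H2O2 library 2 or H2O2 library 3. In that order, these fits called 16.5%, 14.7%, 29.9% and 13.2% of all tested miRNAs, against 26.2% with all libraries. The log2FC of hsa-miR-218-5p in them lay between −0.97 and −0.73, with edgeR FDR from 0.0549 to 0.104. A fit of both experiments together, which called 8.89% of miRNAs in co-treatment, also left it short (edgeR FDR = 0.0828).

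Both arms of miR-138 had higher group means with H2O2 in co-treatment, but neither passed the test. The hsa-miR-138-5p level was 336, 384 and 187 CPM in controls and 361, 520.4 and 284 CPM in H2O2 libraries, which overlapped, with a log2FC of 0.32 (SE 0.32, edgeR FDR = 0.516). hsa-miR-138-1-3p went from 29.1, 31.1 and 25.6 CPM to 51.5, 35.8 and 47.3 CPM without overlap, with a log2FC of 0.62 (SE 0.27, edgeR FDR = 0.0953). Without control 2 or without H2O2 library 2, hsa-miR-138-1-3p was called, with log2FC of 0.73 and 0.85. Those fits called 37.0% and 29.9% of all tested miRNAs, against 26.2% with all libraries. hsa-miR-338-5p had 4.3, 2.8 and 8.3 CPM in controls and 3.1, 1.8 and 2.1 CPM in H2O2 libraries. These overlapped, and its log2FC of −1.10 (SE 0.44, edgeR FDR = 0.0551) rested on 11 to 59 counts per library. It was −0.54 without control 3 and −1.37 without control 2 (edgeR FDR = 0.00873). The latter was a call, in the fit that called 37.0% of all tested miRNAs. In all, 4 of the 6 had no overlap between the co-treatment groups, as did 41.4% of the tested miRNAs.

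Pre-treatment asked whether exposure before differentiation leaves a difference after 7 days in ATRA without H2O2. hsa-miR-138-5p was raised, and no other member passed the test in either direction, where 5.41% of the 868 tested miRNAs were raised and 9.91% lowered (15.3% in all). hsa-miR-137 and hsa-miR-338-3p also lay higher in all 3 H2O2 libraries than in both controls without passing it, and 3 of the 6 thus had no overlap, as did 47.6% of all tested miRNAs. The median log2FC of the 6 was 0.23, against −0.19 over all tested miRNAs.

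The controls of hsa-miR-138-5p held 344 and 348.5 CPM, and the H2O2 libraries 808, 672 and 704 CPM. Here the controls, which stood apart in other miRNAs, were nearly equal, and every H2O2 library was well above them. The log2FC was 1.03 (SE 0.26, edgeR FDR = 0.0362), with FDR = 0.0105 in DESeq2 but 0.0645 in edgeR's quasi-likelihood test, which called 1.96% of all tested miRNAs. Leaving out any H2O2 library ended the call, in fits that called only 1.08% to 1.91% of all tested miRNAs. Over all 5 libraries left out in turn the log2FC lay between 0.99 and 1.14. With 1 control left, the control arm has no spread of its own and the H2O2 libraries supply it. Such fits called 34.8% of miRNAs without control 1 and 54.8% without control 2, so their log2FC are given as values and their calls are not used.

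For hsa-miR-137 the pre-treatment controls held 10926 and 20462 CPM and the H2O2 libraries 28529, 27287 and 34863 CPM. The H2O2 libraries were all higher, but the controls differed more from each other than control 2 did from the lowest H2O2 library. The log2FC was 0.88 (SE 0.36, edgeR FDR = 0.15), 0.51 without control 1 and 1.46 without control 2. In the fit of both experiments together, which called 15.9% of miRNAs in pre-treatment, hsa-miR-137 passed (0.95, edgeR FDR = 0.0280).

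hsa-miR-338-3p stood at 567 and 783.5 CPM in controls and at 1140.3, 1079.5 and 1271.8 CPM in H2O2 libraries. Its groups did not overlap either, and the log2FC was 0.73 (SE 0.28, edgeR FDR = 0.180). It was 0.52 without control 1 and 1.03 without control 2.

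The remaining 3 members overlapped between the pre-treatment groups, and which control was used decided their direction. hsa-miR-138-1-3p had 68.7 and 13.8 CPM in controls, on either side of the H2O2 libraries at 36.8, 40.1 and 26.0 CPM. Its log2FC was −0.27 (SE 0.60, edgeR FDR = 0.802), 1.26 without control 1 and −1.01 without control 2. hsa-miR-218-5p held 42.4 and 85.3 CPM in controls and 51.9, 65.4 and 34.7 CPM in H2O2 libraries. The log2FC of −0.39 (SE 0.45, edgeR FDR = 0.653) was −0.80 without control 1 and 0.25 without control 2. hsa-miR-338-5p, with 1.1 and 4.3 CPM in controls and 1.0, 1.7 and 1.3 CPM in H2O2 libraries, had a log2FC of −1.12 (SE 0.69, edgeR FDR = 0.333), −1.78 without control 1 and 0.18 without control 2. For these 3, pre-treatment thus gave no direction that both controls share.

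**Figure D2:**
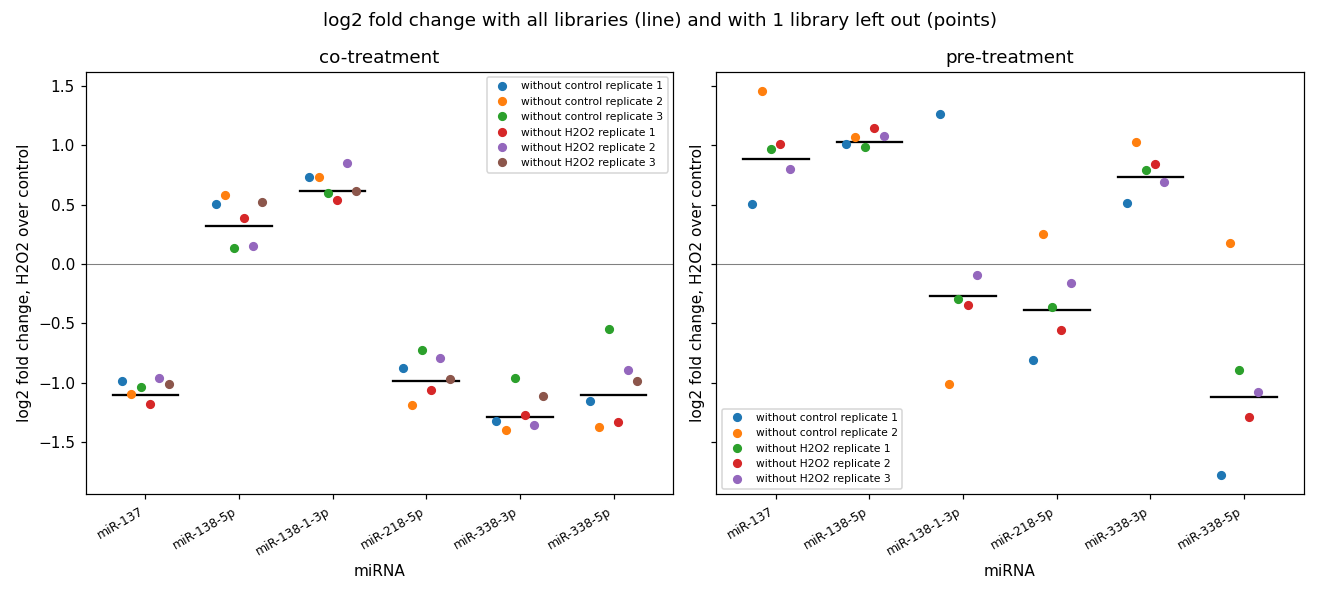
log2 fold change of H2O2 over control (y axis) for each of the 6 miRNAs (x axis), with all libraries (black lines) and with 1 library left out (points, coloured by library), in co-treatment (left) and pre-treatment (right). Points stay on 1 side of 0 for all 6 miRNAs in co-treatment, while in pre-treatment hsa-miR-138-1-3p, hsa-miR-218-5p and hsa-miR-338-5p cross 0 when a control is left out.

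Other marker lists also moved with H2O2 in pre-treatment, where 5.41% of all tested miRNAs were raised. The summed level of the 3 liver miRNAs (hsa-miR-122-5p, hsa-miR-192-5p and hsa-miR-194-5p) was 487 to 698 CPM in controls and 1539.7 to 1823.7 CPM in H2O2 libraries, with 2 of 3 called raised. That of the 4 red blood cell miRNAs was 2.12 to 3.70 CPM and 10.45 to 15.04 CPM. Of these, 2 of 3 tested were called raised, hsa-miR-451a and hsa-miR-144-5p. hsa-miR-486-5p went the other way, with overlap and without a call (log2FC −0.48), and hsa-miR-144-3p was at 0 counts in at least 1 library of both groups. The 4 muscle miRNAs summed to 1.55 to 4.15 CPM in controls and 6.25 to 6.72 CPM in H2O2 libraries, with 1 of 2 tested called raised (hsa-miR-1) and hsa-miR-133a-3p at 0 counts in every library. The 5 neuronal markers summed to 1385.8 to 1826.9 CPM in controls and 2302.7 to 2690.8 CPM in H2O2 libraries, with none of 4 tested called. Their part in the rise of hsa-miR-138-5p was not tested. In co-treatment, where 15.6% of all tested miRNAs were lowered, the oligodendrocyte pair summed to 13.3 to 77.8 CPM in controls and 8.26 to 21.1 CPM in H2O2 libraries. Of this pair 1 of 1 tested was called lowered, and hsa-miR-219a-2-3p had at most 1 count. The neuronal markers summed to 1792.4 to 2681.4 CPM and 1950.0 to 2100.4 CPM there. Of these, 1 of 4 tested was called lowered, hsa-miR-9-5p, on 24 to 46 counts in controls and 14 to 20 in H2O2 libraries. hsa-miR-124-3p was under the detection limit of 3 counts in both groups, at 0 to 2 counts in controls and 0 in H2O2 libraries. The part of these lists in the falls of hsa-miR-137, hsa-miR-338-3p and hsa-miR-218-5p was not tested.

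Whether the response differed between the regimens was tested with an interaction term in edgeR, in 1 quasi-likelihood model of the 11 libraries. hsa-miR-137 and hsa-miR-338-3p, the pair that fell in co-treatment and stood higher in pre-treatment, both passed this test. The log2FC of hsa-miR-137 was 2.02 higher in pre-treatment than in co-treatment (SE 0.37, edgeR FDR = 0.00221), and that of hsa-miR-338-3p 2.06 higher (SE 0.42, edgeR FDR = 0.00359). Both calls held with any library left out other than a pre-treatment control. With 1 pre-treatment control left, it was assumed to vary like the other groups, so those fits are given as values only. They set both ends of the range over all 11 libraries left out in turn, 1.43 to 2.55 for hsa-miR-137 and 1.64 to 2.33 for hsa-miR-338-3p. Of the 945 miRNAs tested, 27.3% passed, and 12.9% had the higher log2FC in pre-treatment.

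The other 4 members did not pass the test of the difference. It was 0.71 for hsa-miR-138-5p (SE 0.45, edgeR FDR = 0.262), so its call in pre-treatment alone is not a shown difference from co-treatment. For hsa-miR-218-5p the difference was 0.65 (SE 0.52, FDR = 0.373), for hsa-miR-138-1-3p −0.92 (SE 0.63, FDR = 0.299) and for hsa-miR-338-5p 0.06 (SE 0.88, FDR = 0.965), all from edgeR.

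**Figure D3:**
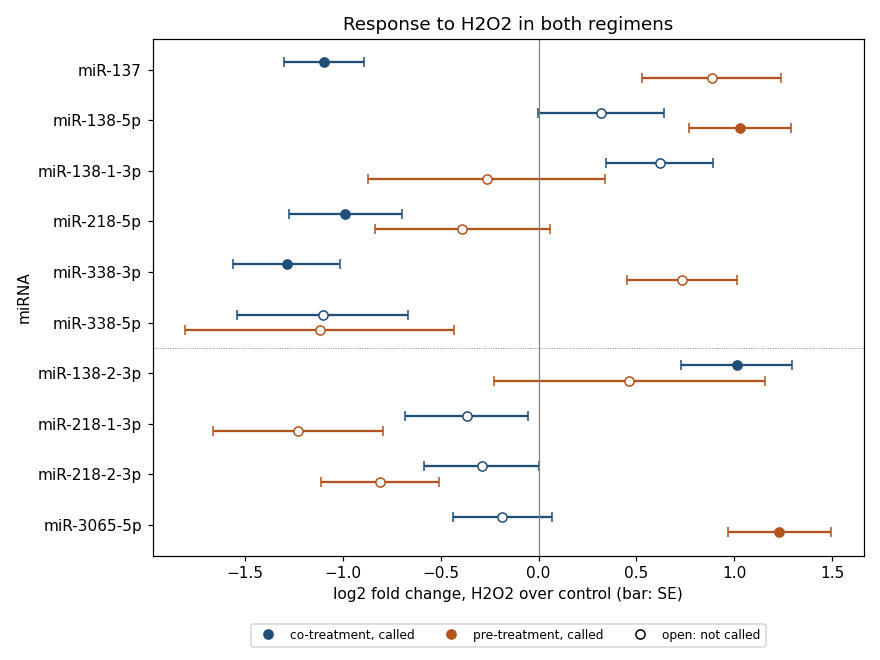
log2 fold change of H2O2 over control (x axis) for the 6 miRNAs and, under the dotted line, other arms of their hairpins and hsa-miR-3065-5p (y axis), in co-treatment and pre-treatment. Points are estimates, bars SE, and filled points passed FDR and fold thresholds. hsa-miR-137 and hsa-miR-338-3p lie on opposite sides of 0, at −1.10 and −1.29 in co-treatment and at 0.88 and 0.73 in pre-treatment.

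The responses followed the GC content of the mature sequence across the 701 of 790 tested miRNAs in co-treatment and 769 of 868 in pre-treatment that had one, with opposite signs in co-treatment and pre-treatment. In co-treatment, the median log2FC rose from −0.88 in 132 miRNAs with GC below 40% to −0.31, 0.28 and 0.65 in the bands 40 to 50%, 50 to 60% and 60% or more. Of the lowest band 47.7% was lowered and of the highest 2.04%. In pre-treatment the medians ran from 0.60 in 135 miRNAs through 0.25 and −0.56 to −0.83 in the highest band.

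In co-treatment, hsa-miR-137 and hsa-miR-218-5p, both below 40%, had log2FC of −1.10 and −0.99, beside that median of −0.88. Both arms of miR-138, between 50 and 60%, had 0.32 and 0.62, beside 0.28. hsa-miR-338-3p and hsa-miR-338-5p, at −1.29 and −1.10, lay further below the median of their band, −0.31. With 40.9% GC, however, hsa-miR-338-3p sat just above the edge of the band below 40%, whose median was −0.88. In pre-treatment hsa-miR-138-5p stood against the trend, with a log2FC of 1.03 where its band had a median of −0.56 and 3.15% of miRNAs raised. hsa-miR-137 at 0.88 and hsa-miR-338-3p at 0.73 lay above medians of 0.60 and 0.25. The value of hsa-miR-338-3p was closer to 0.60, the median of the band below 40%.

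**Figure D4:**
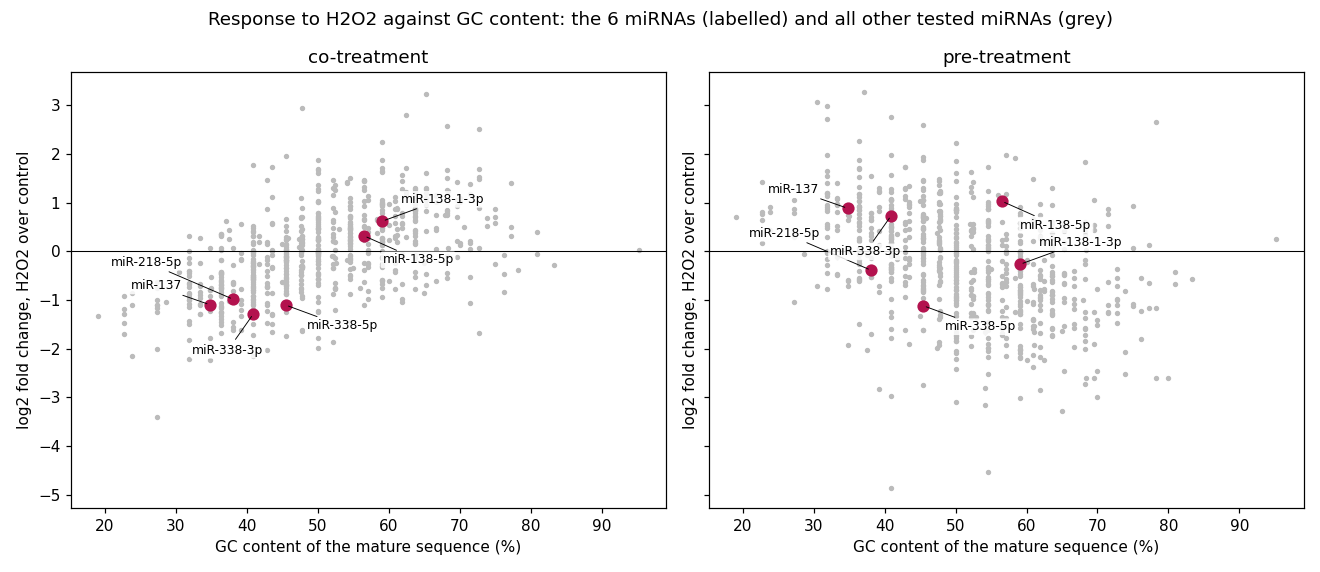
log2 fold change of H2O2 over control (y axis) against GC content of the mature sequence in percent (x axis) for all tested miRNAs with a sequence (grey) and the 6 members (labelled), in co-treatment (left) and pre-treatment (right). The grey cloud rises with GC content on the left and falls on the right, and hsa-miR-138-5p lies above the cloud's centre at its GC content on the right, at 1.03 against a band median of −0.56.

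When each library's trend on GC content was removed in a quasi-likelihood fit of miRNAs averaging 10 CPM or more, the co-treatment calls of the members were lost. The log2FC of hsa-miR-137 went from −0.86 to −0.28 (edgeR FDR = 0.261), that of hsa-miR-218-5p from −0.74 to −0.27 (FDR = 0.435) and that of hsa-miR-338-3p from −1.04 to −0.69 (FDR = 0.0947). Among all 364 miRNAs in this fit the correction took the calls from 36.0% to 6.59%. In pre-treatment it moved hsa-miR-138-5p up, from 0.78 to 1.26 (edgeR FDR = 0.0344), a call, while hsa-miR-137 went from 0.70 to 0.37 and hsa-miR-338-3p from 0.51 to 0.33, neither called. Of 349 miRNAs 16.0% were called before and 11.7% after. The difference between the regimens remained called for hsa-miR-338-3p, at 1.05 (SE 0.31, edgeR FDR = 0.0315), and fell short for hsa-miR-137, at 0.67 (SE 0.24, FDR = 0.0620). Without the correction the same fit gave 1.63 and 1.61, and the calls among its 358 miRNAs went from 41.3% to 21.2%. hsa-miR-338-5p was too rare to enter these fits. What produced the trend on GC content was not tested.

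The hairpins' other arms gave a view of which locus the counts come from. hsa-miR-138-2-3p held 27.4, 39.3 and 26.0 CPM in co-treatment controls and 58.8, 60.7 and 73.1 CPM in H2O2 libraries. All H2O2 libraries were higher, and it was raised with a log2FC of 1.01 (SE 0.28, edgeR FDR = 0.00585), a call that held after the GC correction (1.03, edgeR FDR = 0.0459). Thus among the 3 products of the miR-138 hairpins, 1 passed the test in co-treatment, the arm cut from MIR138-2 only. In pre-treatment the controls held 66.1 and 9.0 CPM and the H2O2 libraries 55.8, 51.3 and 48.2 CPM, with a log2FC of 0.46 (SE 0.69, edgeR FDR = 0.735).

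Within libraries, hsa-miR-138-2-3p and hsa-miR-138-1-3p were close to equal in co-treatment controls (mean log2 ratio 0.09 ± 0.22, SD, n = 3), and hsa-miR-138-2-3p led in co-treatment H2O2 libraries (0.53 ± 0.30, n = 3), with overlap. In pre-treatment the ratio was −0.33 ± 0.39 in controls (n = 2) and 0.61 ± 0.27 in H2O2 libraries (n = 3), without overlap. The balance of hsa-miR-138-1-3p to hsa-miR-138-5p, taken as log2 of counts + 0.5, was −3.34 ± 0.41 in co-treatment controls and −3.08 ± 0.68 in H2O2 libraries, a difference of 0.25 (exact permutation test, two-sided, p = 0.7). In pre-treatment it was −3.49 ± 1.65 in controls and −4.42 ± 0.35 in H2O2 libraries (difference −0.94, exact permutation p = 0.6). Its 2 pre-treatment controls lay near opposite ends of the range over all 11 libraries.

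For miR-218, the usual guide arm was not the more counted arm in these libraries. hsa-miR-218-2-3p exceeded hsa-miR-218-5p in every library, by 4.93 to 18.8 times, and exceeded hsa-miR-218-1-3p by 10.5 to 42.5 times. hsa-miR-218-2-3p stood at 649.8, 588 and 963 CPM in co-treatment controls and at 523, 856 and 437.5 CPM in H2O2 libraries. The 3p arm thus overlapped between the groups in which hsa-miR-218-5p fell, with a log2FC of −0.29 (SE 0.29, edgeR FDR = 0.518). hsa-miR-218-1-3p, from the SLIT2 intron, had a log2FC of −0.37 (SE 0.31, edgeR FDR = 0.429). In pre-treatment both 3p arms lay lower in every H2O2 library than in either control, without passing the test: hsa-miR-218-2-3p at −0.81 (SE 0.30, edgeR FDR = 0.138) and hsa-miR-218-1-3p at −1.23 (SE 0.43, edgeR FDR = 0.0843).

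hsa-miR-338-3p exceeded hsa-miR-338-5p by 179 to 1116.4 times. The log2 balance of 5p to 3p was −8.73 ± 0.37 in co-treatment controls and −8.48 ± 0.51 in H2O2 libraries (n = 3 each, exact permutation p = 0.5), 0.25 apart, a difference smaller than the spread between libraries. In pre-treatment it was −8.18 ± 0.99 in controls (n = 2) and −9.76 ± 0.44 in H2O2 libraries (n = 3), a difference of −1.58 without overlap (exact permutation p = 0.2). The pre-treatment value rested on 8 to 29 counts of hsa-miR-338-5p. With 3 against 3 libraries this test cannot go below p = 0.1, and with 2 against 3 not below p = 0.2, by exact permutation, and over the 4 balances tested the Benjamini-Hochberg adjusted p was 0.7 for each.

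The locus of miR-338 is also transcribed from the opposite strand, which gives hsa-miR-3065. hsa-miR-3065-5p is complementary to all 22 bases of hsa-miR-338-3p and was singled out after the values were seen. It held 347, 378 and 481 CPM in co-treatment controls and 365, 349 and 363 CPM in H2O2 libraries, a log2FC of −0.19 (SE 0.25, edgeR FDR = 0.647). Its groups overlapped, and the log2 ratio of hsa-miR-338-3p to hsa-miR-3065-5p went from 2.33 ± 0.24 to 1.23 ± 0.32 (SD, n = 3 each) without overlap. In pre-treatment hsa-miR-3065-5p held 168 and 187 CPM in controls and 415, 421 and 452 CPM in H2O2 libraries. The separation was wide, with a log2FC of 1.23 (SE 0.26, edgeR FDR = 0.0139), and the ratio went from 1.91 ± 0.22 (n = 2) to 1.44 ± 0.07 (n = 3), again without overlap. Whether the counting used strand is not given in the sources used here. If it did not, reads of these complementary RNAs cannot be told apart.

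**Figure D5:**
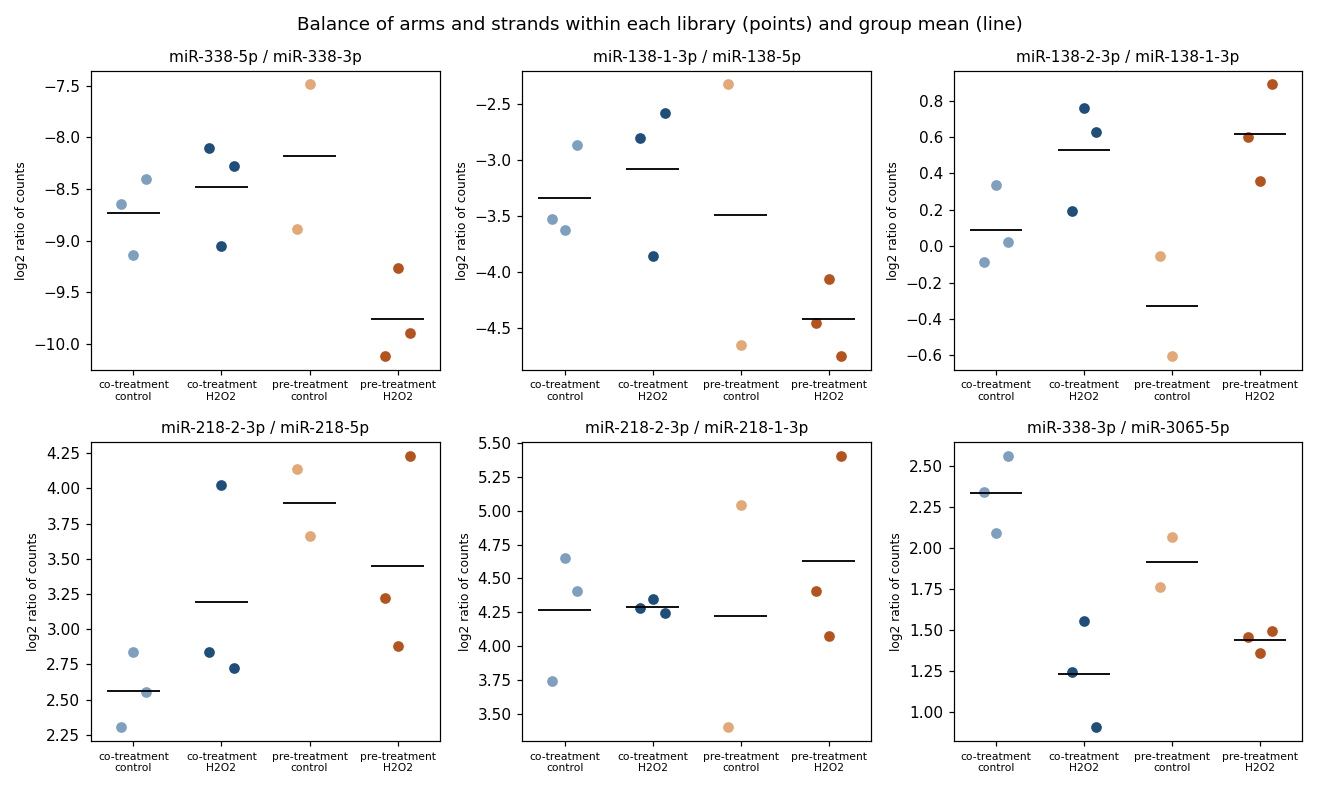
log2 ratio of counts (y axis) of pairs of arms or strands within each library, by group (x axis). Points are libraries and lines group means. The ratio of hsa-miR-338-3p to hsa-miR-3065-5p is lower in every H2O2 library than in any control of the same experiment, and hsa-miR-218-2-3p exceeds hsa-miR-218-5p in all 11 libraries.

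The miRNAs with the most similar course over the 11 libraries were found among 403 miRNAs by the root mean square difference of log2 levels after each miRNA's mean within each experiment was subtracted. For hsa-miR-137 they were hsa-miR-651-5p (0.15), hsa-miR-499a-5p (0.18) and hsa-miR-19b-1-5p (0.18), where the median over all was 0.64. hsa-miR-338-3p was closest to hsa-miR-148a-3p (0.10), hsa-miR-561-5p (0.11) and hsa-miR-130a-3p (0.15), against a median of 0.65. Those near hsa-miR-138-5p were hsa-miR-330-5p (0.19), hsa-miR-362-5p (0.21) and hsa-miR-708-5p (0.22), and those near hsa-miR-218-5p were hsa-miR-340-3p (0.22), hsa-miR-214-5p (0.26) and hsa-miR-548ay-3p (0.27). Among the members, hsa-miR-137 and hsa-miR-338-3p were the closest pair, at 0.26, and hsa-miR-138-5p was 0.70 from hsa-miR-138-1-3p, an arm of the same hairpin. The likeness of levels is a description over libraries that share their depth and GC trend.

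Other neuron-enriched miRNAs did not share 1 direction. Of 30 listed, 24 were tested in co-treatment, 1 was raised and 4 were lowered, where 10.6% of all tested miRNAs were raised and 15.6% lowered, with a median log2FC of −0.08 against −0.04 over all. The raised one was hsa-miR-485-3p (1.02, edgeR FDR = 0.0310). The lowered ones were hsa-miR-9-5p (−1.06, FDR = 0.0493), which acts in neurogenesis, hsa-miR-153-5p (−1.40, FDR = 0.000298), hsa-miR-219a-5p (−1.56, FDR = 0.00722), known from oligodendrocytes, and hsa-miR-495-3p (−1.68, FDR = 0.0326), all from the same edgeR test. The groups overlapped for hsa-miR-485-3p and hsa-miR-219a-5p. Counts were low for hsa-miR-495-3p (10 to 15 in controls, 3 to 5 in H2O2 libraries) and hsa-miR-9-5p (24 to 46 and 14 to 20). In pre-treatment 23 were tested, none was raised and 2 were lowered, hsa-miR-134-5p (−1.95, FDR = 0.0188), a brake on dendritic spine growth, and hsa-miR-485-5p (−2.06, FDR = 0.00201), from edgeR's exact test, with a median of −0.31 against −0.19. Over all miRNAs there 5.41% were raised and 9.91% lowered. The 3 most abundant of the list, hsa-miR-34a-5p (mean 10584 CPM), hsa-miR-149-5p (3445.3 CPM) and hsa-miR-132-3p (2920.6 CPM), passed the test in neither experiment. The list was chosen with earlier results of these data known.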

How the data were processed

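Small RNA of 11 SH-SY5Y cultures was sequenced by the authors (QIAseq miRNA kit, Illumina NextSeq). Per the authors' notes, Cutadapt 2.10 trimmed the reads, Bowtie2 2.4.1 placed them on hg19 and HTSeq 0.7.2 counted them, and the deposited values are raw read counts per mature miRNA, not normalized. The miRBase release and the use of molecular identifiers or strand in counting are not given in the sources used here. The authors' deposited tables of their own comparison hold log2 fold changes, mean log CPM, p-values and FDR, and were not used.

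Groups came from the labels. The members and lists were chosen with earlier results of these data known. All miRNAs were fitted and adjusted together in edgeR 4.0.16 (R 4.3.3), after the study's methods: exact test in each experiment with TMM, FDR under 0.05 and absolute log2FC above 0.6, for miRNAs above a CPM that equals 5 counts in the experiment's smallest library (0.936 and 0.721) in 3 co-treatment or 2 pre-treatment libraries. The SE came from quasi-likelihood fits. The difference in response was a quasi-likelihood interaction over 11 libraries (FDR under 0.05). Level similarity used miRNAs averaging 10 CPM or more and a prior count of 2. Arm balances used counts + 0.5 and exact permutation tests. Named miRNAs were the 6 members, the other measured arms of their hairpins, the called and the 3 most abundant members of the neuron list, and the 3 most similar miRNAs of hsa-miR-137, hsa-miR-138-5p, hsa-miR-218-5p and hsa-miR-338-3p. Marker lists covered red blood cells, white blood cells, epithelium, liver, muscle, oligodendrocytes and neurons.

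RefSeq mature sequences matched 2263 of 2576 miRNAs by name, including all 6 members, and gave GC content. For the correction, miRNAs averaging 10 CPM or more were fitted with each library's lowess trend on GC content (span 0.5) as offset. As further alternatives, each library was left out, both experiments were fitted together, the replicate number was a block, the test was DESeq2 1.42.0 or quasi-likelihood, scaling was by library size or DESeq2 factors, and filters and fold thresholds were changed. Fits were tested on simulated data. No 2 libraries agreed within sampling noise (chi-square per degree of freedom at least 29.9). Positions are from GENCODE on GRCh37.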

Additional observations from a re-analysis of the deposited data

Results flagged for a closer look

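Of the 6 miRNAs, 2 responded differently to H2O2 in the 2 regimens by a test of the difference itself, the interaction in edgeR's quasi-likelihood fit of 11 libraries. The log2FC of hsa-miR-137 was 2.02 higher in pre-treatment than in co-treatment, and that of hsa-miR-338-3p was 2.06 higher. Of all 945 miRNAs 27.3% passed the same test. After the GC correction hsa-miR-137 was at 0.67 (FDR = 0.0620 in edgeR), no longer called, and hsa-miR-338-3p at 1.05 (FDR = 0.0315). Both were lower in 3 of 3 H2O2 libraries than in any control in co-treatment, and higher in 3 of 3 in pre-treatment. Groups without overlap were common, in 41.4% of all tested miRNAs in co-treatment and 47.6% in pre-treatment. Regimen and experiment cannot be told apart in this design. No group had 4 or more libraries, so single libraries were not tested as outliers.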

How the results depend on the processing

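Of 294 alternative estimates of the members' log2FC, 252 kept direction and side of the threshold, 12 passed it newly, 17 fell short and 13 changed sign. Members called in co-treatment (3) became 0 with the GC correction. They were 4 in the same fit without the correction and with the filter in every library, and 2 in 1 fit of both experiments. With 1 library left out they were 2 to 5, with 5 in the fit without control 2, which called 37.0% of all tested miRNAs. In pre-treatment, the 1 called member became 0 with the quasi-likelihood test, with no low-count filter, with the filter in every library, with the replicate block and in the uncorrected fit of miRNAs with a GC value, 2 in 1 fit of both experiments and 0 to 4 with 1 library left out (4 where 1 control remained and the H2O2 libraries alone gave the spread). In the difference, 2 became 1 with the GC correction and stayed 2 with any library left out other than a pre-treatment control.

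Signs turned in these cases. The pre-treatment log2FC of hsa-miR-138-1-3p was 0.28 with the replicate block, 0.12 with the GC correction and −1.01 to 1.26 with 1 library left out, where hsa-miR-218-5p ran from −0.80 to 0.25 and hsa-miR-338-5p from −1.78 to 0.18. With 1 library left out, the difference between the regimens ran from −1.64 to 0.47 for hsa-miR-138-1-3p, and for hsa-miR-338-5p from −0.85 to 1.30. It was −0.22 for hsa-miR-338-5p with the filter in every library, and −0.50 for hsa-miR-218-5p with the GC correction. The pre-treatment difference, H2O2 minus control, in the log2 balance of hsa-miR-138-1-3p to hsa-miR-138-5p was −2.10 without control 2 and 0.23 without control 1. The cause was not tested. The 12 similar miRNAs were the same 12 with library-size scaling.

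Calls over all miRNAs in co-treatment (207) were 84 in 1 fit of both experiments, 111 with the replicate block, 131 in the fit of 364 miRNAs with a GC value, 24 there with the GC correction and 98 (without H2O2 library 3) to 279 (without control 2) with 1 library left out. In pre-treatment (133) they were 17 with the quasi-likelihood test (254 at an unadjusted p under 0.05), 15 with the block, 61 with no filter, 56 in the fit of miRNAs with a GC value, 41 with the correction, and 9 (without H2O2 library 2) to 449 (without control 2). For the difference (258) they were 115 with the block, 148 in the fit of 358 miRNAs with a GC value, 76 there with the correction, and 164 to 444 with 1 library left out. Same-numbered libraries did not deviate together in co-treatment (r from −0.26 to 0.03), so the numbers were not taken to pair them. In pre-treatment r was 0.36 and −0.03. It could not decide this, because the deviations of only 2 controls from their mean mirror each other, and no pairing was assumed. The block ended no member's call in co-treatment or in the difference. In pre-treatment hsa-miR-138-5p had FDR = 0.440 in edgeR with the block, but the quasi-likelihood test without it had already lost the call (FDR = 0.0645). Depth limited hsa-miR-338-5p, at 8 to 59 counts.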

Other observations

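The marker lists not described above moved as follows. Of all tested miRNAs, 10.6% were raised and 15.6% lowered in co-treatment, and 5.41% and 9.91% in pre-treatment. Of 6 white blood cell miRNAs, 5 were tested in each experiment and 1 was lowered in each. All 7 epithelial miRNAs were tested in each, with none called in co-treatment and 1 lowered in pre-treatment. Both pre-treatment calls were miRNAs that stood high in control 1. hsa-miR-223-3p held 76.3 CPM in control 1, 0.592 CPM in control 2 and 1.12 to 1.55 CPM in H2O2 libraries. hsa-miR-205-5p held 142, 4.74 and 2.11 to 4.48 CPM in the same order. In co-treatment 1 of 3 tested red blood cell miRNAs was raised, hsa-miR-486-5p, with 1 to 4 counts in controls and 8 to 20 in H2O2 libraries. hsa-miR-451a (0.59) and hsa-miR-144-5p (−0.50) were not called there, and none of the 3 liver miRNAs was called. Of the 4 muscle miRNAs, 2 were tested in each experiment. hsa-miR-206 was called in neither, and hsa-miR-1 was not called in co-treatment (−0.55, FDR = 0.366 from edgeR) and was raised in pre-treatment (1.74, FDR = 0.0259 from edgeR), on 6 to 29 counts per library. The tables name no arm for hsa-miR-1 and hsa-miR-203a, which were taken as the listed 3p arms. The summed level of the 30 neuron-enriched miRNAs was 17561 to 19756.5 CPM in co-treatment controls and 21527 to 24473 CPM in the H2O2 libraries. In pre-treatment it was 19577 to 20423 CPM and 23041 to 24197.5 CPM. This sum lay higher with H2O2 in both but was led by 1 miRNA, hsa-miR-34a-5p. It alone held 7963 to 8716 CPM in co-treatment controls and 10333 to 13402 CPM in the H2O2 libraries. Its pre-treatment levels were 5821 to 8645 CPM and 12297 to 15544 CPM. The median log2FC of the tested miRNAs in the list was −0.08 in co-treatment and −0.31 in pre-treatment, so the sum shows no shared rise.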
